A study of Mus musculus with 6 samples.

Results

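The regions described here are the 260 entries of chromosome 19 in a deposited list of 9010 genomic regions recovered with the long noncoding RNA Meg3 from mouse insulinoma cells. The 260 regions were taken by their chromosome alone, at every width. The chromosome itself was chosen with earlier results of these data known. Of the list, 9005 regions lie on the 20 nuclear chromosomes (19 autosomes and X). All positions are on mm9, counted from 1.

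The study used chromatin isolation by RNA purification (ChIRP), in which cross-linked chromatin is captured with biotinylated DNA probes complementary to an RNA and the attached DNA is sequenced. MIN6-4N, the cells used, derive from an insulin-secreting tumour of mouse beta cells. One stable clone carried empty pcDNA3.1 (V3) and the other carried pcDNA3.1 with Meg3 (M5). Both were selected in G418 at 750 µg/ml, expanded at 500 µg/ml and fixed in 1% glutaraldehyde. Each clone is a single picked clone and gave 1 input library without probes, 1 library with odd-numbered probes and 1 library with even-numbered probes, so no group has a replicate. The list analysed here carries the code of the Meg3 clone. It gives positions only, with 0 in both value columns of every row, so neither the vector clone nor the separate odd and even pull-downs can be compared region by region. The number of reads behind each region is unknown.

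Meg3 is a maternally expressed RNA of an imprinted cluster and is found in the nucleus, where it is known to associate with chromatin-modifying complexes. Chromosome 19 is the shortest mouse autosome and holds several genes of interest in beta cells. Men1 encodes menin, a tumour suppressor whose loss causes multiple endocrine neoplasia type 1 and which is known to act upstream of Meg3 in insulinoma cells. Ins1 is the rodent insulin gene that arose as a retrocopy of Ins2. In the RefSeq gene table of GRCm38.p6, the protein-coding neighbours of Men1 are Cdc42bpg and Map4k2, with the splicing factor gene Sf1 and the muscle glycogen phosphorylase gene Pygm beyond Map4k2. The protein-coding neighbours of Ins1 are Sorcs1, which encodes a sorting receptor, and Xpnpep1, which encodes an aminopeptidase. All 20 genes considered from a list of beta cell, metabolic and nuclear RNA genes were found on chromosome 19 of that table. From the centromere, the table places Cpt1a, the mitochondrial carnitine palmitoyltransferase of fatty acid oxidation, ahead of the nuclear noncoding RNA genes Malat1 and Neat1, which in turn come ahead of Men1. The transcription factor gene Glis3, the insulin-degrading enzyme gene Ide, the transcription factor gene Hhex and the desaturase genes Scd2 and Scd1 come between Men1 and Ins1. The adrenergic receptor gene Adra2a and the Wnt pathway transcription factor gene Tcf7l2 come after Ins1. The table is on another build than the list, so it was used for names and order only, and no region below is assigned to a gene.

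The regions of chromosome 19 were dense for this list and left few long stretches empty. They ran from 3316002 to 61275744, a span of 57.96 Mb, at 4.49 regions per Mb (95% exact Poisson interval 3.96 to 5.07). The other 19 nuclear chromosomes together carried 3.49 per Mb, which gives a ratio of 1.29 (95% exact conditional interval 1.13 to 1.45). Against chromosome 7, which carries the other insulin gene Ins2 and held 3.41 regions per Mb, the ratio was 1.31 (1.13 to 1.53). Against chromosome 11, which held 4.93 per Mb, it was 0.91 (0.78 to 1.05), an interval that includes equal density. Chromosomes 1, 11 and 17 were denser and the other 16 were sparser. The intervals of 10 chromosomes overlapped that of chromosome 19, and those of the remaining 9 lay below it. Its regions covered 52895 bp, or 0.0913% of the span. These intervals cover counting error only, and no test between chromosomes was made because regions of 1 list are not replicates.

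**Figure D1:**
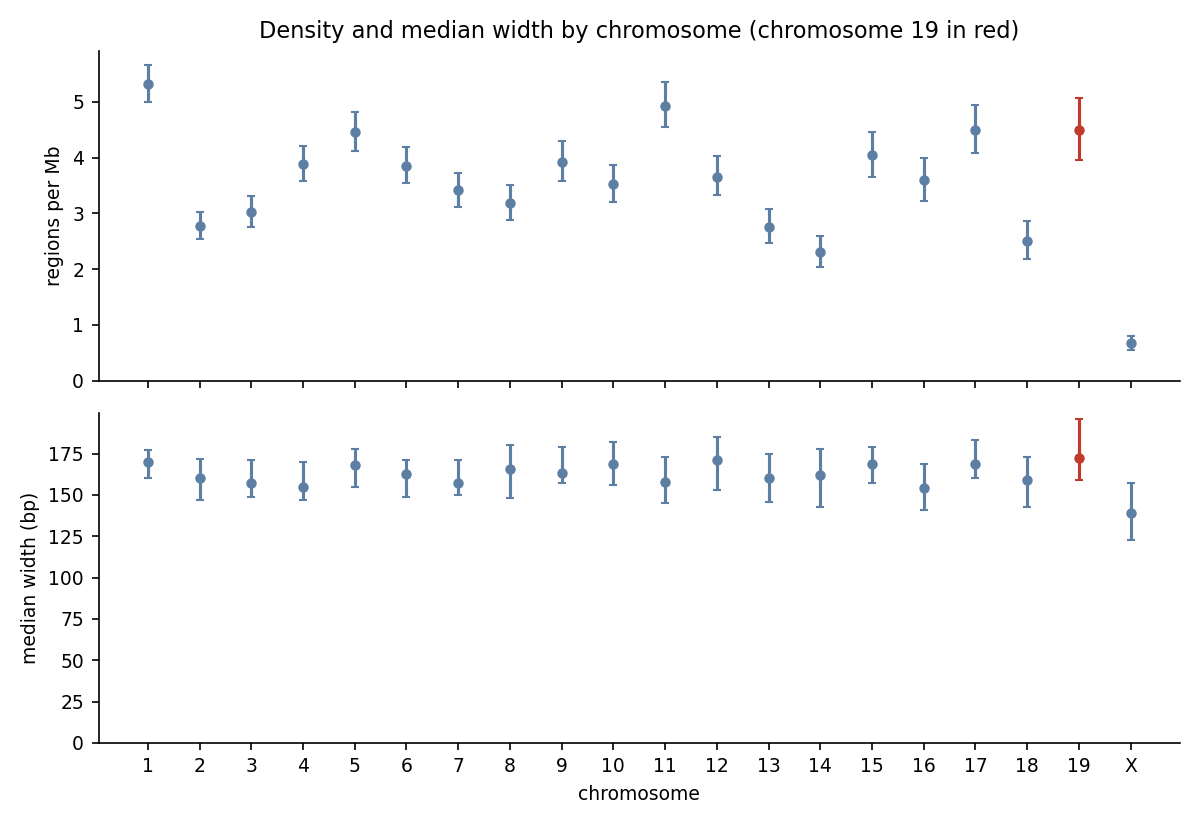
Regions per Mb of span (upper panel, points with 95% exact Poisson intervals) and median region width in bp (lower panel, points with 95% order-statistic intervals) for each of the 20 nuclear chromosomes, with chromosome 19 in red. Chromosome 19 has 3 chromosomes above it in density, at 4.49 per Mb, and the highest median width, at 172.5 bp, with an interval that overlaps that of each other chromosome except X.

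Counts in windows of 1 Mb show where along the chromosome the regions lay. Over 59 windows the count was 4.41 ± 2.66 regions (mean ± SD over windows), with a lowest value of 0 and a highest of 11. The variance was 1.61 times the mean, where independent placement at 1 rate would give a ratio near 1. Regions were therefore patchier than the Poisson intervals assume, and those intervals are too narrow to that extent. The same ratio ran from 1.17 to 3.09 on the other chromosomes, 15 of which were above chromosome 19. It was 2.59 on chromosome 11 and 3.09 on chromosome 7. Of the 59 windows, 2 held no region and 5 held 1.

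**Figure D2:**
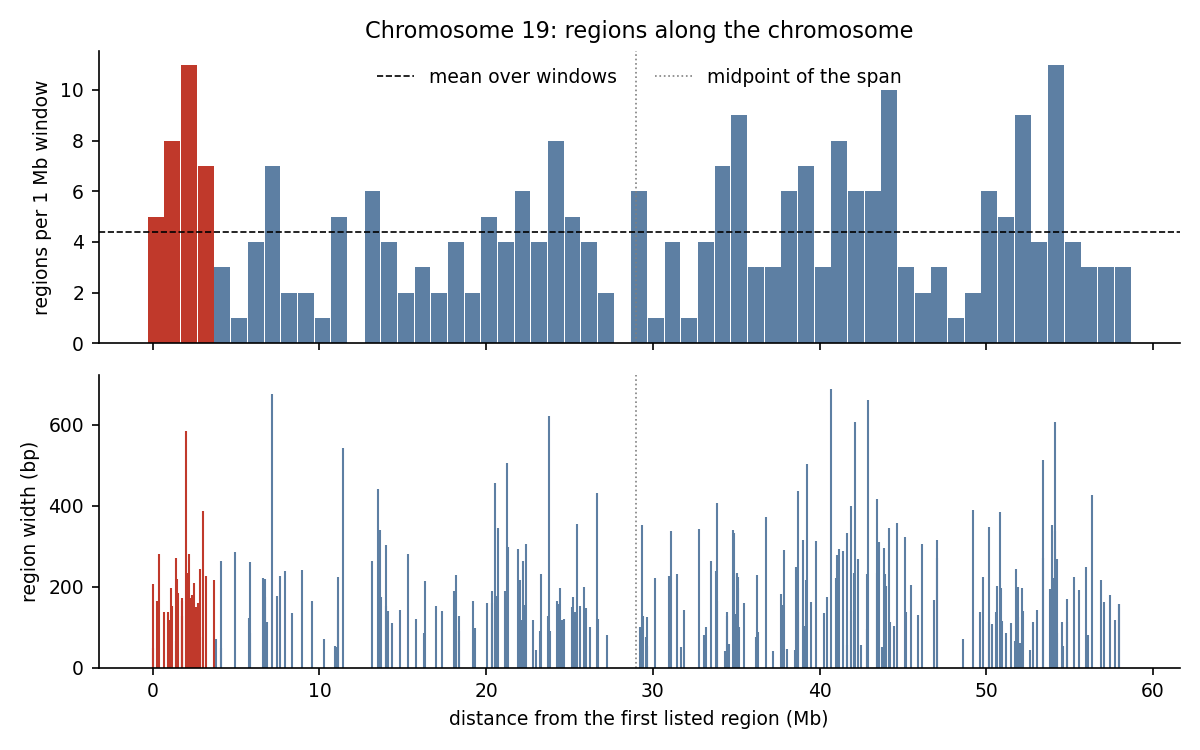
Upper panel, number of regions in each 1 Mb window of chromosome 19 against the distance in Mb from the first listed region, with windows up to 7 Mb of mm9 in red, the mean over windows dashed and the midpoint of the span dotted. Lower panel, the width in bp of each of the 260 regions at its place on the same axis. The windows at 5 to 6 Mb and 57 to 58 Mb are the tallest, with 11 regions each.

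The proximal stretch from 3 to 7 Mb, the gene-dense start of the chromosome that holds Men1, held more regions than any other window of 4 Mb on chromosome 19, stepped by 1 Mb. It held 31 of the 260 regions (11.9%). The single windows of 1 Mb held 5, 8, 11 and 7 regions in order from 3 Mb. From the first listed region to 7 Mb the density was 8.41 per Mb (95% exact Poisson interval 5.72 to 11.9), against 4.22 per Mb (3.69 to 4.80) over the rest, a ratio of 1.99 (95% exact conditional interval 1.32 to 2.91). The stretch was chosen with earlier results of these data known, so this ratio and its interval are descriptions. Density was lower beyond 7 Mb, but this edge does not mark where the thinning began. The last region before it, which ended at 6999801, came after 467299 bases without a region. From 7 to 10 Mb there were 8 regions, or 2.67 per Mb (1.15 to 5.25), and the ratio of the proximal stretch to it was 3.16 (1.42 to 7.95).

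Further stretches came close to the proximal one. Of the 56 overlapping windows of 4 Mb on chromosome 19, the window from 3 to 7 Mb ranked first with 31 regions, followed by 44 to 48 Mb with 30 and by 4 to 8 Mb and 54 to 58 Mb with 29 each. The median over the 56 windows was 16.5 regions. On the other chromosomes 118 of 2463 such windows (4.79%) held 31 regions or more, so a stretch this dense was not restricted to chromosome 19. At the same position from 3 to 7 Mb, the other 19 chromosomes held 1 to 40 regions with a median of 12. Chromosome 11 alone was higher, with 40, and 20 of those fell in its first 100 kb from 3.0 to 3.1 Mb. The 31 regions of chromosome 19 formed no such knot, since no window of 100 kb on this chromosome held more than 3.

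Within the proximal stretch some regions stood in pairs and trios and others stood alone. The first region of the chromosome, from 3316002 to 3316207 (206 bp), was followed after 15937 bases by a region of 48 bp from 3332145 to 3332192. Further along, a trio occupied 4701365 to 4751548 with widths of 67, 271 and 219 bp. A second trio occupied 5056909 to 5092862 with widths of 166, 172 and 127 bp, its last members being 1466 bases apart. The widest region of the stretch, 585 bp from 5331392 to 5331976, stood alone, with its nearest neighbour 124052 bases away. A region of 56 bp at 5814375 to 5814430 was followed after 4971 bases by one of 210 bp at 5819402 to 5819611.

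The window from 6 to 7 Mb held 7 regions with widths between 75 and 387 bp. It opened with a region of 161 bp (6031824 to 6031984) and a region of 127 bp (6068443 to 6068569). The closest pair of the whole chromosome followed, a region of 245 bp from 6164839 to 6165083 and a region of 75 bp from 6166091 to 6166165, with 1007 bases between them. The widest region of this window, 387 bp from 6337511 to 6337897, stood apart from its neighbours, the nearer of which was 171345 bases away. The remaining regions spanned 226 bp (6532060 to 6532285) and 217 bp (6999585 to 6999801). Which of these regions, if any, lies in Men1 or its promoter was not determined, because no gene positions on mm9 were used here.

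The proximal regions had a shorter median distance to their neighbours than the rest and a median width within a few bp of it. Their median distance to the nearest region was 36458 bases (95% order-statistic interval 17361 to 86275), against 60553 bases (50514 to 83695) over the rest, and the intervals overlap. Their median width was 173 bp (150 to 217) against 171 bp (157 to 197), a difference of 2 bp with a range of -47 to 60 from the ends of both intervals. A width under 100 bp was found for 4 of the 31 (12.9%, 95% Clopper-Pearson interval 3.63 to 29.8), against 39 of 229 (17.03%, 12.4 to 22.5). The region of 585 bp was the 1 proximal region of 500 bp or more.

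From 7 Mb to the midpoint of the span, the chromosome was sparser. This stretch held 86 regions at 3.40 per Mb (2.72 to 4.20). Cut into 10 equal bins of 5.80 Mb numbered from the centromere, the span held 36 regions in bin 1 and then 20, 17, 23 and 21 in bins 2 to 5. The second-longest stretch of the chromosome without a region lay here, 1.76 Mb from 14735706 to 16496907, and the window from 15 to 16 Mb was empty. It began at a region of 544 bp, among the 10 widest of the chromosome. The fifth-longest, 0.84 Mb, ran from 21706092 to 22543071. The median distance to the nearest region was 83695 bases here (57588 to 99798).

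The distal side of the midpoint, which holds Ins1, carried 143 regions or 55% of the total (95% Clopper-Pearson interval 48.7 to 61.2). The midpoint of the span fell inside the longest stretch without a region, 2.00 Mb from 30570702 to 32569038, so no region lies across the split. Density was 4.93 per Mb (4.16 to 5.81) on the distal side and 4.04 (3.34 to 4.84) on the proximal side, a ratio of 1.22 (0.95 to 1.57) whose interval includes 1. With the stretch up to 7 Mb left out of the proximal side, the ratio was 1.45 (1.10 to 1.92). It had to rise, because the densest window of 4 Mb was removed while the distal side kept its own dense stretches. Nothing about a distal excess can therefore be read from it. On the other chromosomes the distal side held between 35.4% and 66.2% of the regions, with a median of 55.4%. Chromosome 19 held 13.8% of its regions in bin 1 and 11.5% in bin 10, whereas the medians over the other chromosomes were 8.35% and 12.8%. A larger share was held by 2 other chromosomes in bin 1 and by 16 in bin 10.

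Around and beyond the midpoint, full and sparse stretches alternated. From 30 to 37 Mb there were 18 regions at 2.57 per Mb (1.52 to 4.06). None was 500 bp or wider (0%, Clopper-Pearson interval 0 to 18.5), against 4.23% of all regions, a share inside that interval. The stretches from 48 to 53 Mb and beyond 58 Mb also had none. The stretch from 30 to 37 Mb included the fourth-longest gap, 0.90 Mb from 35169967 to 36067158. The part of it beyond the midpoint held 16 regions at 3.40 per Mb (1.94 to 5.52). From 37 to 48 Mb there were 68 regions at 6.18 per Mb (4.80 to 7.84). From 48 to 53 Mb there were 11 at 2.20 per Mb (1.10 to 3.94), and from 53 to 58 Mb there were 35 at 7 per Mb (4.88 to 9.74). The last 3.28 Mb held 13 regions at 3.97 per Mb (2.11 to 6.79). These boundaries were drawn after the counts had been seen, so the contrasts between these stretches are descriptions.

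**Figure D3:**
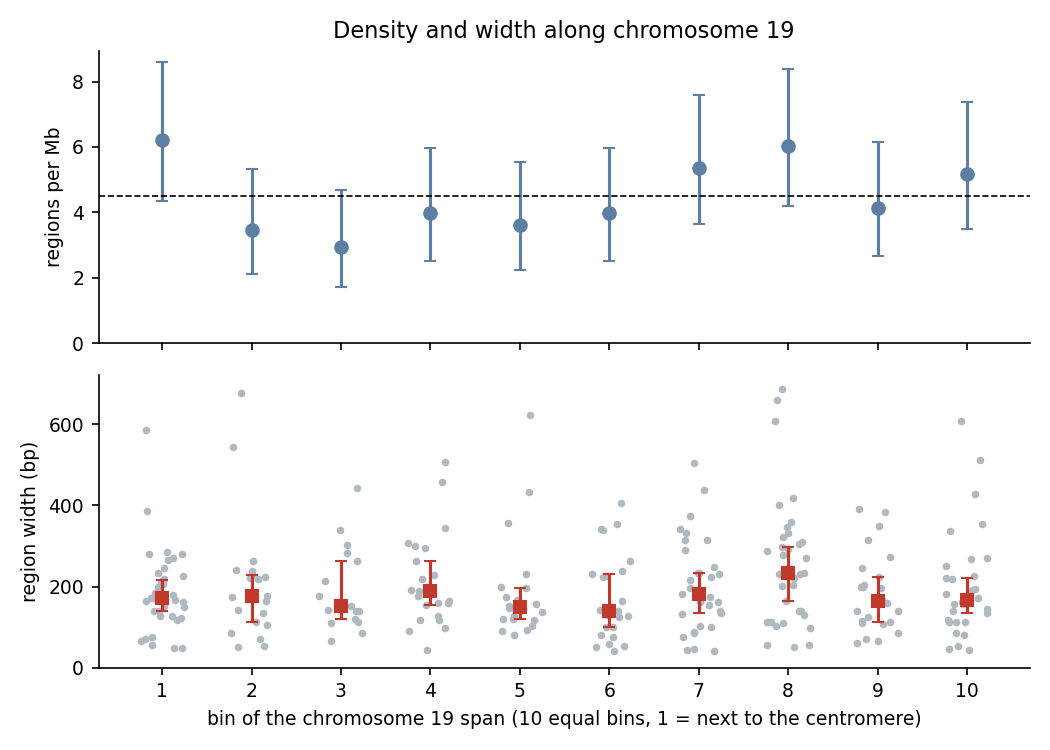
Regions per Mb with 95% exact Poisson intervals (upper panel, whole-chromosome density dashed) and region widths in bp (lower panel, grey points for single regions, red squares for medians with 95% order-statistic intervals) in each of 10 equal bins of the chromosome 19 span, numbered from the centromere. Density is highest in bin 1 at 6.21 per Mb and in bin 8 at 6.04, and bin 8 also has the highest median width at 234 bp.

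After the windows at 5 to 6 and 57 to 58 Mb with 11 regions each, the next 3 windows of 1 Mb by count were all on the distal side. The window from 47 to 48 Mb held 10 regions, and those from 38 to 39 and from 55 to 56 Mb held 9 each. In the window from 57 to 58 Mb, regions ran from 57143619 to 57910416 with widths of 46 to 608 bp. A trio there occupied 57439311 to 57493111 and included the fifth-widest region of the chromosome, 608 bp from 57455097 to 57455704. A pair at 57544678 to 57544945 and 57547895 to 57547981 lay 2949 bases apart.

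The sparse stretch from 48 to 53 Mb contained the third-longest gap, 1.52 Mb from 50378249 to 51902764. On its proximal side stood a pair of 315 bp (50364117 to 50364431) and 272 bp (50377978 to 50378249), 13546 bases apart. On its distal side a region of 72 bp (51902764 to 51902835) stood 635789 bases from the next one, which spanned 391 bp from 52538625 to 52539015. A region of 139 bp followed at 52941890 to 52942028. Spacing tightened again from 53497814, where a region of 114 bp was followed after 9168 bases by one of 349 bp (53507096 to 53507444). The regions beside this gap, other than those that bound it, were named after their positions had been seen. How far Ins1 lies from any of them was not determined.

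Chromosome 19 had no interval under 1 kb and few over 1 Mb. Between consecutive regions the median was 135 kb (95% order-statistic interval 117 to 174), with quartiles of 50.8 and 301 kb over 259 intervals. The shortest was the 1007 bases in the window from 6 to 7 Mb. Thus 0 of 260 regions had a neighbour less than 1 kb away, which allows a share of up to 1.15% at 3 counts (upper end of the 95% Clopper-Pearson interval 1.41%), whereas 156 of the 8745 regions elsewhere (1.78%, 95% Clopper-Pearson interval 1.52 to 2.08) had one. Such regions come at least in pairs, so these intervals are too narrow. Chromosome 18 also had none, chromosomes 2, 6, 13 and X had 2 each, and the highest number on a chromosome was 22. The absence did not extend to larger distances. A neighbour under 2 kb away was found for 6 regions (2.31%, 0.85 to 4.95) against 2.89% elsewhere, and a neighbour under 10 kb away for 34 (13.1%, 9.23 to 17.8) against 10.8%. The share under 50 kb was 45.0% (38.8 to 51.3) against 38.7%.

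At the other end, 3 intervals of chromosome 19 exceeded 1 Mb and took up 9.12% of its span. The other chromosomes each had 11 to 46 such intervals, which took up 14.0% to 86.6% of their spans. Chromosome 19 is the shortest of the 20, so the share of the span is the fairer measure, and it was below that of each of the other 19 chromosomes. The median distance to the nearest region was 59968 bases (48795 to 78771), the second shortest of the 20 after chromosome 1 with 48930. The coefficient of variation of the intervals was 1.16, with 17 of the other chromosomes above it. It was 1.86 on chromosome 7 and 1.32 on chromosome 11.

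**Figure D4:**
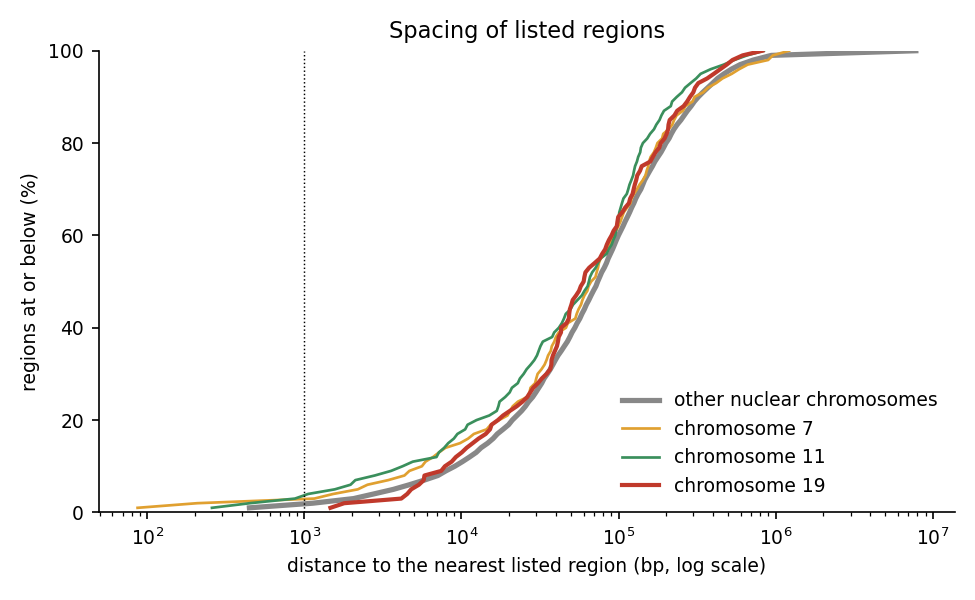
Cumulative share of regions, in percent, whose nearest listed region lies at or below the distance on the log-scaled horizontal axis in bp, for chromosome 19, chromosomes 7 and 11, and all nuclear chromosomes other than 19. The dotted line marks 1 kb, which the curve of chromosome 19 does not reach, while at 50 kb it stands at 45.0% against 38.7% for the other chromosomes together.

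The 3 closest pairs were those with 1007, 1466 and 1540 bases between their members. The third lay on the distal side, a region of 125 bp from 55208990 to 55209114 and one of 199 bp from 55210655 to 55210853. Of 17 intervals under 10 kb, 11 were on the distal side and 3 in the stretch from 3 to 7 Mb. Those parts held 55% and 11.9% of all regions. Of 580 windows of 100 kb, 376 held no region, 156 held 1, 40 held 2 and 8 held 3. The 8 windows with 3 regions lay at 4.7, 5.0, 16.9, 37.1, 38.1, 38.4, 47.2 and 57.4 Mb, so that 5 were on the distal side. This count depends on where the windows begin, as a shift of 50 kb gave 5 such windows, and on narrow regions, as those at or above the nuclear median of 164 bp gave 2. They held 24 of the 260 regions, spread over 36.0 to 67.1 kb from the first base of the trio to the last.

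The median width on chromosome 19 was 172.5 bp (95% order-statistic interval 159 to 196). The quartiles were 118 and 262 bp, the narrowest region spanned 41 bp and the widest 688 bp. The other nuclear chromosomes together had a median of 163 bp (160 to 166), and the intervals overlap. Taken singly, the medians of the other chromosomes ran from 139 bp on X to 171 bp on chromosome 12, so the median of chromosome 19 was the highest, by a margin far inside its own interval. Regions under 100 bp made up 16.5% (95% Clopper-Pearson interval 12.2 to 21.6) against 19.02% elsewhere, and those from 200 to 299 bp made up 23.8% (18.8 to 29.5) against 19.5% (18.7 to 20.4). The intervals overlap in both classes. From 100 to below 150 bp the shares were 22.7% against 25.8%. They were 19.6% against 18.0% from 150 to below 200 bp, and 13.1% against 14.2% from 300 to below 500 bp. Regions of 500 bp or more numbered 11, or 4.23% (2.13 to 7.44), against 3.51% elsewhere.

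The widest region of chromosome 19 spanned 688 bp from 44014778 to 44015465. It was followed by regions of 676 bp (10449464 to 10450139), 661 bp (46217343 to 46218003), 623 bp (27068604 to 27069226) and 608 bp (57455097 to 57455704). The next spanned 607 bp (45417306 to 45417912), 585 bp (5331392 to 5331976), 544 bp (14735163 to 14735706), 513 bp (56720240 to 56720752) and 506 bp (24557488 to 24557993). These 10 and a region of 504 bp (42565779 to 42566282) are those of 500 bp or more, and the next in width spanned 457 bp. Of the 11, 6 were on the distal side, which held 55% of all regions. The window from 43 to 48 Mb held 3 of the 11 and 12.7% of all regions. A neighbour under 20 kb away was found for 4 of the 11, and for 57 of all 260 regions (21.9%).

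Median widths by position and spacing had overlapping intervals. By bin of the span the median was lowest in bin 6 at 139 bp (100 to 232) and highest in bin 8 at 234 bp (164 to 297). Bin 8, from 43.9 to 49.7 Mb, held 35 regions. Of these, 3 were 500 bp or wider (8.57%, Clopper-Pearson interval 1.80 to 23.1), against 4.23% of all regions, a share inside that interval. Bin 2 had a higher share of such regions, at 10% (1.23 to 31.7). Regions covered 0.155% of bin 8, against 0.0913% of the whole span. The stretch from 3 to 7 Mb was covered to 0.162%. Regions with a neighbour under 20 kb away had a median width of 197 bp (140 to 234, 57 regions), those at 20 to 100 kb 174 bp (156 to 201, 111 regions) and those at 100 kb or more 164 bp (143 to 194, 92 regions). Across the 260 regions, which share 1 list and 1 set of libraries, Spearman's rho was -0.04 between width and distance to the nearest region and 0.03 between width and position.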

How the data were processed

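The input was 1 deposited list of regions, named for the Meg3 clone. Its build is mm9, per the submitters' processing notes. The authors deposited 0 as the score in both value columns of every row, so no height, fold or significance could be used. Aligner, peak caller, threshold and the use made of input and probe libraries are not given in the sources used here, nor is the meaning of the word unique in the name of the list. Read depth is unknown.

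Starts were converted to count from 1, and a region was assigned to a window by its midpoint. A chromosome's span begins at its first region and ends at its last, assembly gaps included. Distances are the bases between neighbouring regions. Intervals at 95% are exact Poisson for counts, exact conditional for ratios of densities, exact Clopper-Pearson for shares and order-statistic for medians, computed with SciPy 1.17.1, NumPy 2.4.6 and pandas 2.3.3 in Python 3.11.15. They treat regions as independent. No test was made. The functions were checked on simulated data.

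No mm9 genome or annotation was used here, so overlap with genes was not analysed and no sequence is shown. Gene names and order come from RefSeq on GRCm38.p6. One item of the gene list is not reported here, and the text names only some of the others. The regions named are the 10 widest, the first of the chromosome, those of the closest pairs, of the windows with the most regions and from 6 to 7 Mb, and those that bound the 5 longest gaps. No pair lay under 1 kb apart and no window of 100 kb held 4 regions or more, so the closest pairs and the windows with 3 were named in their place. The neighbours of the first region and of the gap at 50 to 52 Mb, the pair between 5.8 and 5.9 Mb and the region of 504 bp were added after their values had been seen. The chromosome, the stretches and the gene list were chosen with earlier results of these data known.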

Additional observations from a re-analysis of the deposited data

How the results depend on the processing

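For 8 results, 25 values were recomputed under alternatives, of which 22 stayed within the interval of the reported value or, for counts, within 1.5 times of it. Some of the 22 could not move. Joining pairs closer than 1 kb changed no value taken from chromosome 19 alone, because it has no such pair. Its lack of such pairs was also bound to persist, since dropping regions or measuring between midpoints can only lengthen distances. The 22 therefore overstate how far the results were put to the test. Keeping only regions at or above the median nuclear width of 164 bp left 140 on chromosome 19, raised the median distance to the nearest region to 139077 bases and left 2 windows of 100 kb with 3 regions, since fewer regions were counted. Shifting those windows by 50 kb gave 5. The density relative to other chromosomes ran from 1.22 (autosomes only) to 1.39 (wider regions), and that of the stretch from 3 to 7 Mb from 1.71 (stretch extended to 8 Mb) to 2.29 (wider regions). Counting all 4 Mb of that stretch, chosen after seeing the data, gave 1.84. The difference in median width between that stretch and the rest was -45 bp (range -107 to 39) among wider regions. No paired analysis was possible because no group has a second library and no region carries a value. Depth is unknown, so the number of sites below the caller's threshold cannot be stated.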

Other observations

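Consecutive regions of chromosome 19 resembled each other little. Spearman's rho was -0.09 between the widths of neighbours (259 pairs) and 0.10 between consecutive intervals (258 pairs). These are descriptions of 1 list, in which each region enters as the first and as the second member of a pair. The most frequent width was 139 bp, found for 7 of the 260 regions, followed by 164 and 234 bp with 4 each.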
